A study of Mus musculus with 6 samples.

Results

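Coagulation factors and the early components of complement are the liver-made plasma proteins described here, in liver RNA of Swiss-Webster mice. The list held 35 genes: the clotting factors, fibrinogen chains, anticoagulant and fibrinolytic proteins, and complement proteins up to the level of C3. A member was measured where the array annotation gave a probe set, a group of probes for 1 transcript, that symbol alone, and where a gene had several, the brightest over all arrays stood for it. On that rule 31 of the 35 genes were measured, out of 12393 genes with such a probe set, and all 31 were bright enough to be tested. C3, Cfd and Cpb2 had no probe set under that symbol in the annotation used here, and the probe set of C4b also carried the symbol C4a, so these 4 genes were not analysed here.

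The RNA was measured on 6 Affymetrix arrays, in a series titled Boswellia Serrata, a frankincense tree. The control diet, with no stated supplement, has 2 arrays (replicates 1 and 2). Fraction 1, marked hexane, has 2 arrays (replicates a and b), and fraction 2, marked methanol, has 2 (replicates a and b), each fraction at 1% of the diet. Both fractions were fed for 21 days. The labels give no age or sex and do not say whether an array stands for 1 animal or a pool, so the spread behind each p-value may be technical, and 2 arrays a group limit the precision.

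Most of these proteins are secreted by hepatocytes. Clotting runs as a cascade of proteases, each cleaving the next, that ends with thrombin turning soluble fibrinogen into fibrin, while antithrombin, protein C and their relatives hold it in check and plasmin dissolves the clot. Complement is a related protease cascade of innate immunity: mannose-binding lectins or antibody start it, C2 and factor B form the enzymes that cleave C3, and factor I, C4-binding protein and C1 inhibitor restrain it.

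No member passed the test in any comparison. After fraction 1, 0 of 31 members had an adjusted p under 0.05 with limma (0.712% of all 14755 tested probe sets did), after fraction 2, 0 of 31 (0.108% of all), and between the fractions 0 of 31 (0.0136% of all). Most members nevertheless lay somewhat below control with both fractions. Their median log2 fold change was -0.26 after fraction 1 and -0.25 after fraction 2, against -0.02 and -0.04 for all tested probe sets. Of the 31 members, 29 lay below 0 after fraction 1 (93.5%, against 52.8% of all tested probe sets) and 29 after fraction 2 (93.5%, against 55.4%). Both fractions were set against the same 2 control arrays, so these are not 2 separate observations. The direction of the median held with quantile normalization and with median centring, but its size after fraction 2 became -0.11 and -0.13 there. Median centring moved the median of all probe sets after fraction 2 from -0.04 to 0.07, and relative to that median the members stood at -0.20 on both scales, but at -0.11 with quantile normalization.

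At an unadjusted p under 0.05, 11 members lay lower and 2 higher after fraction 1, where 6.48% of all probe sets lay lower and 5.92% higher. In either direction that is 41.9% of the members against 12.4% of all. The 13 members became 5 without fraction 1 replicate b (6.19% of all), 7 without control replicate 2 (17.3% of all), 19 without control replicate 1 (16.5% of all) and 8 with no variance trend (11.3% of all). After fraction 2, 6 members lay lower and 1 higher, against 3.56% and 3.39% of all, or 22.6% against 6.95% in either direction. That share depended on the scaling: 3 members stood there with quantile normalization (9.68%, against 6.45% of all) and 2 with median centring (6.45%, against 6.81% of all). The 7 also became 1 with no variance trend (3.23%, against 6.45% of all). They became 4 with no filter (12.9%, against 6.04% of all) and 4 with chip lot as a block (12.9%, against 7.24% of all). Leaving out any array but control replicate 1 lowered the count, and leaving out control replicate 1 or keeping scan batch 1 alone raised it. The share of all probe sets moved the same way each time, though hardly without control replicate 2. Each of these runs leaves a group with 1 array. Both fraction 1 arrays read below both control arrays for 22 of the 31 members (71.0%), as they did for 22.1% of all probe sets, and both fraction 2 arrays did for 22 members (71.0%), against 20.4%. Both arrays read above both controls for 2 members after fraction 1 (18.8% of all) and for 1 after fraction 2 (14.8% of all). Without control replicate 2, the members below control numbered 23 after fraction 1 and 23 after fraction 2, against 38.0% and 35.3% of all. Those above it numbered 4 and 2, against 40.2% and 32.5% of all. Without control replicate 1, those below numbered 27 and 27, against 45.1% and 45.6% of all. Those above numbered 2 and 2, against 33.1% and 33.5% of all. The 31 probe sets were bright: 23 lay in the brightest 5% of the arrays, which says nothing of transcript amounts across genes. All 23 lay below 0 after either fraction, against 51.9% and 65.3% of the 1132 probe sets of that brightness. At an unadjusted p under 0.05 stood 39.1% of the 23 after fraction 1 and 26.1% after fraction 2, against 24.5% and 17.0%. Among these 23, both fraction 1 arrays read below both controls for 18 (78.3%), against 26.3% at that brightness. Both fraction 2 arrays did so for 19 (82.6%), against 33.8%.

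**Figure D1:**
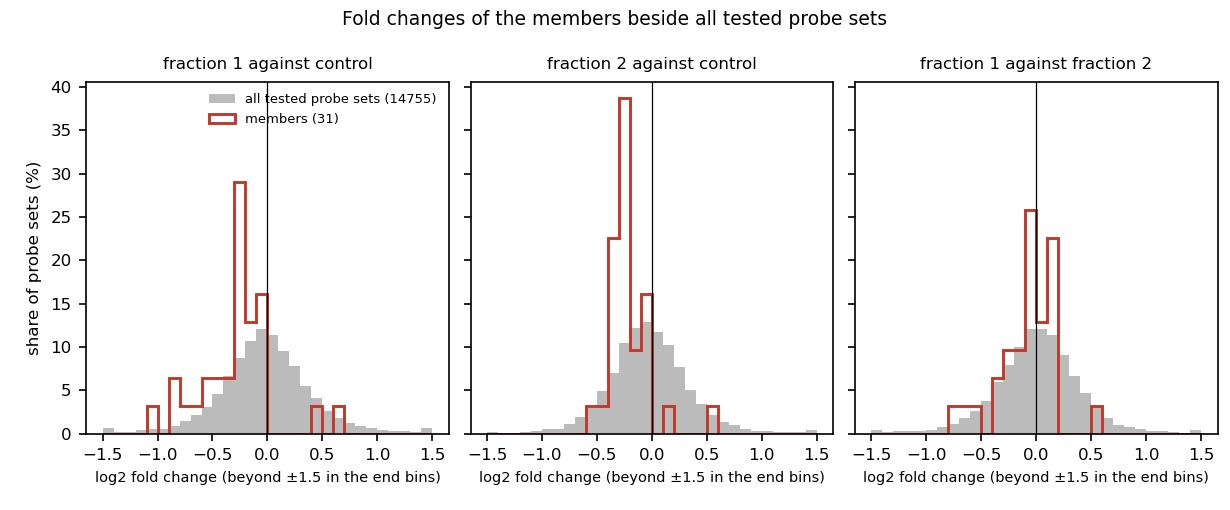
Histograms of the log2 fold change (x axis) as a share of probe sets in percent (y axis) for the 3 comparisons, with all 14755 tested probe sets in grey and the 31 members as a red line. The members lie to the left of 0 against control, with medians of -0.26 and -0.25, and spread around 0 between the fractions, with a median of -0.04.

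The control arrays and the fraction 1 arrays differed among themselves, and the fraction 2 arrays less so. Control replicate 2 read above control replicate 1 for 21 of 31 members, with a median log2 difference of 0.14. Fraction 1 replicate b read below replicate a for 28 of 31 (median -0.17), and the fraction 2 arrays were split 16 to 15 (median 0.03). Control replicate 2 also had the highest ratio of 3' to 5' actin signal, which rises as RNA breaks down, at 3.87 against 2.13 to 2.64 elsewhere. Without it the median of the members was -0.18 after fraction 1 and -0.17 after fraction 2, with 26 and 25 of 31 below 0. The part of RNA quality in these values was not tested. The arrays were scanned in 2 batches, batch 2 holding control replicate 1 and fraction 2 replicate a. With scan batch as a block the medians came to -0.30 and -0.25, and to -0.34 and -0.27 from the batch 1 arrays alone. With chip lot as a block the medians came to -0.24 and -0.19. Batch 2 held no fraction 1 array, so only fraction 2 can be set against control there, 1 array against 1. The members' changes after fraction 2 ran from -0.37 (F5 and Fga) to 0.37 (C2) within batch 2. Within batch 1 they ran from -0.84 (F11) to 0.66 (C2).

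Of 8 hepatocyte markers, 7 were measured, and none passed. Their median stood at -0.19 after fraction 1 and -0.35 after fraction 2, with 4 and 7 of the 7 below 0. Both fraction arrays read below both controls for 28.6% and 85.7% of them, against 71.0% of the members after either fraction. The shares of all probe sets were 22.1% and 20.4%. At an unadjusted p under 0.05 with limma stood 14.3% and 57.1% of the markers, against 41.9% and 22.6% of the members and 12.4% and 6.95% of all. The summed signal of the hepatocyte markers was 129345 and 142934 array units in control, 127196 and 115277 after fraction 1 and 108436 and 103050 after fraction 2. Of 5 tested stellate cell markers, 4 lay below 0 after fraction 1 (median -0.48) and 2 after fraction 2 (median 0.02), with none passing. Their summed signal, with the untested Lrat included, ran from 5248 to 6431 in control. It ran from 2912 to 3858 after fraction 1 and from 4109 to 5360 after fraction 2. That sum rests mostly on its brightest genes, Reln (-0.59 after fraction 2) and Dcn, which read 3189.6 and 1372.5 in control. None of the 9 Kupffer cell and macrophage markers or the 6 endothelial markers passed. Their medians were -0.19 and -0.32 after fraction 1, and -0.06 and -0.04 after fraction 2. Below 0 lay 7 of the 9 and 4 of the 6 after fraction 1, and 5 and 3 after fraction 2. Alas2, the heme enzyme of red cell precursors and the 1 erythroid marker tested, fell after fraction 1 (log2 fold change -1.66, adjusted p = 0.0384 with limma) and stood at -0.27 after fraction 2. Whether cell type shares had a part in the members' values was not tested, and in bulk liver RNA fewer cells of a type and less RNA per cell cannot be told apart.

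The members of fibrin formation were F2, F5, F10, F13b and the 3 fibrinogen chains. All 7 lay below 0 against control after either fraction, with medians of -0.22 after fraction 1 and -0.25 after fraction 2, and none passed. With median centring F13b, a chain of the fibrin-linking factor XIII, lay above 0 after fraction 2. F5 encodes factor V, the cofactor that speeds the making of thrombin. Its signals were 5596.2 and 4516.1 array units in control, 3026.4 and 2915.1 after fraction 1, and 4335.6 and 4287.7 after fraction 2. Both fraction 1 arrays were lowest, and no groups overlapped. The log2 fold change was -0.76 ± 0.16 (SE) after fraction 1 (adjusted p = 0.0861 with limma) and -0.22 ± 0.16 after fraction 2 (adjusted p = 0.797), and fraction 1 against fraction 2 stood at -0.54 ± 0.16 (adjusted p = 0.454). A second, dimmer probe set of F5 gave -0.38, -0.07 and -0.31. F2, which encodes prothrombin, the precursor of thrombin, read 15617.3 and 18456.9 in control, 15816.4 and 13411.9 after fraction 1, and 13098.7 and 13598.8 after fraction 2. Only the fraction 2 arrays were both below both controls. Its changes were -0.22 ± 0.13 (adjusted p = 0.555) and -0.35 ± 0.13 (adjusted p = 0.671), with 0.13 ± 0.13 between the fractions (adjusted p = 0.804). With quantile normalization F2 stood at -0.14 and -0.13 against control, and without control replicate 2 at -0.10 and -0.23.

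Fgg, Fga and Fgb encode the gamma, alpha and beta chains of fibrinogen, and lie side by side on mouse chromosome 3. Fgg read 17645.9 and 18554.8 in control, 15734.8 and 13744.6 after fraction 1, and 14830.8 and 13114.0 after fraction 2. Fgb read 19211.9 and 23185.2, then 19182.8 and 16295.2, then 16965.9 and 15843.8, and Fga read 15274.3 and 15195.5, then 14784.0 and 13312.9, then 11777.3 and 13846.5. For all 3 chains, all 4 fraction arrays lay below both controls, though fraction 1 replicate a all but matched control replicate 1 for Fgb. The changes of Fgg were -0.30 ± 0.12 (adjusted p = 0.362) and -0.38 ± 0.12 (adjusted p = 0.600), and those of Fgb -0.26 ± 0.13 (adjusted p = 0.491) and -0.36 ± 0.13 (adjusted p = 0.648). With quantile normalization Fgb stood at -0.12 after fraction 1 and -0.04 after fraction 2, and Fgg at -0.14 after fraction 2. Without control replicate 2, Fgb stood at -0.12 and -0.23. Between the fractions Fgg stood at 0.08 ± 0.12 (adjusted p = 0.874), with a 95% interval from -0.20 to 0.35, and Fgb at 0.11 ± 0.13 (adjusted p = 0.831), with an interval from -0.20 to 0.41. F10 encodes factor X, which cleaves prothrombin, and had 3 probe sets, of which 1 differed in sign after fraction 1. The brightest stood at -0.15 and -0.17 against control, the third at -0.21 and -0.56, and the second at 0.23 after fraction 1 and -0.50 after fraction 2, with adjusted p from 0.647 to 0.797. The second is marked as able to detect more than 1 transcript.

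Promoter windows from RefSeq (mouse build GRCm38.p6, from 250 bases before to 50 after the start of a gene) were at hand for 23 of the 31 members. The fibrinogen windows are shown because the 3 neighbouring genes lay on the same side of control on every array. Capitals mark matches, on either strand, to letters taken for liver factors: GTTAAT for HNF1, TTGCNNAA for C/EBP and TTCNNNGAA for STAT. The windows are chr3:83025903-83026202 on the plus strand for Fga, chr3:83049814-83050113 on the minus strand for Fgb and chr3:83007474-83007773 on the plus strand for Fgg.
Fga: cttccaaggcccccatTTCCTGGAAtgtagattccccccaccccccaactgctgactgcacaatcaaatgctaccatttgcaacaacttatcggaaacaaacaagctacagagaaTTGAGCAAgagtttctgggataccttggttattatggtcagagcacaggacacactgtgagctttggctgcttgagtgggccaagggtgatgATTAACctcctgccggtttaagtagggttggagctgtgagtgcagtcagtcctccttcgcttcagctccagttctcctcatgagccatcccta
Fgb: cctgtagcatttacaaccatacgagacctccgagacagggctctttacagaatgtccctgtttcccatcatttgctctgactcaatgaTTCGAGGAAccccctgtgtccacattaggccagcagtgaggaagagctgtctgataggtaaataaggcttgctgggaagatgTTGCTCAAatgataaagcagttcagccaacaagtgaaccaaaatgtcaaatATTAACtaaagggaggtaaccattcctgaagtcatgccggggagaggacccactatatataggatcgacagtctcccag
Fgg: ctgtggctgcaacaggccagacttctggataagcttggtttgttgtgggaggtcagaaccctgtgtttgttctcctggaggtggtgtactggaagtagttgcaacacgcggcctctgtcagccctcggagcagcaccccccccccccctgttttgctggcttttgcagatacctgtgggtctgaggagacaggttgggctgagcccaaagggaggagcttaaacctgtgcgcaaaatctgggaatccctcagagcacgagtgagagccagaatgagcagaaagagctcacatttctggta
Fga and Fgb each held 1 match to each of the 3 motifs, and Fgg held none of them. Over the 23 windows, 7 held GTTAAT (30.4%, against 7.1% of all 32851 mouse windows), 7 held TTGCNNAA (30.4%, against 10.8%) and 6 held TTCNNNGAA (26.1%, against 8.3%). The full HNF1 palindrome, which contains GTTAAT, and the HNF4 letters CAAAGTCCA were found in 0 of the 23. They were found in 0.00913% and 0.475% of all windows, so rarely that 0 of 23 says little. A match is a run of letters and does not show that a factor binds there.

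The contact, intrinsic and extrinsic members, F7, F9, F11, F12, Klkb1 and Kng1, start the cascade. All 6 lay below 0 against control after either fraction, with medians of -0.36 and -0.33, and none passed. With median centring F9 lay above 0 after fraction 2. F11 encodes factor XI, which activates factor IX. Its signals were 1606.3 and 2689.9 in control, 1195.3 and 1024.8 after fraction 1, and 1337.7 and 1494.2 after fraction 2, so that the control arrays differed more from each other than control replicate 1 did from any fraction array. Its changes were -0.90 ± 0.25 (adjusted p = 0.173) and -0.55 ± 0.25 (adjusted p = 0.734), with -0.35 ± 0.25 between the fractions (adjusted p = 0.732). Without control replicate 1, F11 passed after fraction 1 at -1.27 (adjusted p = 0.0402), and without control replicate 2 it stood at -0.53 (adjusted p = 0.249) and, after fraction 2, at -0.18. Within batch 1 it stood at -1.27 after fraction 1 and -0.84 after fraction 2, against -0.26 for fraction 2 within batch 2. Klkb1, its neighbour on chromosome 8, encodes plasma kallikrein and showed the same pattern in control, with 4514.6 and 8542.8 array units against 4046.7 to 5139.2 on the 4 fraction arrays. The groups overlapped for Klkb1.

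F12 encodes factor XII, which starts contact activation. It read 5360.3 and 5829.6 in control, 3825.4 and 3374.5 after fraction 1, and 4904.9 and 3860.6 after fraction 2. All 4 fraction arrays were below both controls, and fraction 2 replicate b stood close to fraction 1 replicate a. The changes were -0.64 ± 0.17 (adjusted p = 0.152) and -0.36 ± 0.17 (adjusted p = 0.741), with -0.28 ± 0.17 between the fractions (adjusted p = 0.683). Within scan batch 2 the change after fraction 2 was -0.13, and within batch 1 -0.59. F7, F9 and Kng1, which encode factor VII, factor IX and kininogen, had changes from -0.29 to -0.03 over both fractions.

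Of the 6 anticoagulants and inhibitors, 5 lay below 0 and 1, Pros1, above it after either fraction, and none passed. With median centring Proz also lay above 0 after fraction 2. Pros1 encodes protein S, a cofactor of activated protein C. Its signals were 570.8 and 451.6 in control, 758.1 and 846.4 after fraction 1, and 522.7 and 600.9 after fraction 2. The fraction 1 arrays lay above all others, and the fraction 2 arrays overlapped control. The change was 0.64 ± 0.20 after fraction 1 (adjusted p = 0.235), where the 95% interval ran from 0.17 to 1.11, and 0.14 ± 0.20 after fraction 2 (adjusted p = 0.890), which was -0.12 within scan batch 2, 0.40 within batch 1 and -0.03 without control replicate 2. Between the fractions it stood at 0.50 ± 0.20 (adjusted p = 0.597). Serping1, which encodes C1 inhibitor, a brake on both the contact system and early complement, read 10954.7 and 10042.0 in control, 8184.8 and 6411.1 after fraction 1, and 9204.2 and 9103.5 after fraction 2. The 3 groups did not overlap, with control highest and fraction 1 lowest. Its changes were -0.53 ± 0.15 (adjusted p = 0.169) and -0.20 ± 0.15 (adjusted p = 0.800), with -0.34 ± 0.15 between the fractions (adjusted p = 0.616). Serpinc1 encodes antithrombin, the main inhibitor of thrombin and factor Xa. It read 15593.0 and 17532.6 in control, 14781.2 and 13671.9 after fraction 1, and 12426.7 and 12765.8 after fraction 2. Here the order was the other way, with the fraction 2 arrays lowest, at -0.39 ± 0.11 (adjusted p = 0.535) against -0.22 ± 0.11 after fraction 1 (adjusted p = 0.495) and 0.17 ± 0.11 between the fractions (adjusted p = 0.709). With quantile normalization Serpinc1 stood at -0.14 and -0.17 against control, and Serping1 at -0.07 after fraction 2. Serpind1 (heparin cofactor II), Proc (protein C) and Proz (protein Z) had changes from -0.37 to -0.05. A second, dimmer probe set of Proz gave -0.48 after fraction 1 and 0.05 after fraction 2.

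Plg, Serpinf2, Hrg and Vtn belong to fibrinolysis and its control. All 4 lay below 0 against control, with medians of -0.15 and -0.22, and none passed. With quantile normalization Hrg lay above 0 after fraction 1 and Plg after fraction 2. After fraction 1 Plg also lay above 0 with scan batch as a block (0.01), within batch 1 (0.03), with chip lot as a block and without control replicate 1. Serpinf2 encodes alpha-2-antiplasmin, the main inhibitor of plasmin. It read 7386.4 and 7807.1 in control, 6655.4 and 5950.0 after fraction 1, and 6840.5 and 6216.8 after fraction 2. Vtn encodes vitronectin, which binds and stabilizes the plasminogen activator inhibitor PAI-1. Its signals were 14736.2 and 15695.6, then 12661.4 and 13395.9, then 13258.6 and 13004.6. For both genes all 4 fraction arrays lay below both controls, and the fraction groups overlapped each other. The changes were -0.27 ± 0.13 (adjusted p = 0.465) and -0.22 ± 0.13 (adjusted p = 0.787) for Serpinf2, and -0.22 ± 0.11 (adjusted p = 0.457) and -0.21 ± 0.11 (adjusted p = 0.748) for Vtn, with -0.49 and -0.22 at its dimmer probe set. After fraction 2, Vtn stood at -0.01 with quantile normalization and -0.10 with median centring, and Serpinf2 at -0.10 with centring. Between the fractions they stood at -0.05 ± 0.13 (adjusted p = 0.929) and -0.01 ± 0.11 (adjusted p = 0.982). Plg, which encodes plasminogen, overlapped between all groups, with a 95% interval from -0.36 to 0.21 after fraction 1 and from -0.41 to 0.16 after fraction 2.

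Among the 6 measured members of the lectin and classical pathway, 5 lay below 0 after either fraction and C2 above it, and none passed. With median centring C4bp and Masp2 also lay above 0 after fraction 2. Mbl1 encodes mannose-binding lectin A, a sugar-binding protein that starts the lectin pathway. Its signals were 2994.1 and 4162.9 in control, 1872.1 and 1461.5 after fraction 1, and 2577.5 and 2801.0 after fraction 2. The 3 groups did not overlap, with control highest and fraction 1 lowest. The change after fraction 1, -1.09 ± 0.21, had the smallest p of all members in that comparison (adjusted p = 0.0699), and its 95% interval ran from -1.56 to -0.61. Mbl1 fell past the threshold when scan batch was a block (-1.23, adjusted p = 0.0416), when the block was chip lot (-1.15, adjusted p = 0.0343) and without control replicate 1 (-1.32, adjusted p = 0.0364). Over all settings its adjusted p ran from 0.0343 to 0.469, the highest without fraction 1 replicate b. After fraction 2 it stood at -0.39 ± 0.21 (adjusted p = 0.751), which was -0.16 without control replicate 2, and between the fractions at -0.69 ± 0.21 (adjusted p = 0.475). Mbl2, which encodes the related mannose-binding lectin C, read 10946.2 and 12825.1 in control, 10616.2 and 8204.6 after fraction 1, and 10444.4 and 10088.1 after fraction 2. Its groups did not overlap with control either, although fraction 1 replicate a came close to control replicate 1.

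C4bp encodes the alpha chain of C4-binding protein, which limits the classical and lectin pathways. It read 5581.2 and 5378.5 in control, 3879.9 and 2443.4 after fraction 1, and 5798.8 and 4606.7 after fraction 2. Both fraction 1 arrays lay below all others, although replicate b stood at -0.66 from replicate a on the log2 scale, and the fraction 2 arrays lay on either side of control. The changes were -0.83 ± 0.22 (adjusted p = 0.164) after fraction 1, -0.08 ± 0.22 (adjusted p = 0.947) after fraction 2 and -0.74 ± 0.22 (adjusted p = 0.475) between the fractions. At their brightest probe sets Masp1 and Masp2, the proteases that travel with the mannose-binding lectins, overlapped control after both fractions. The 4 tested probe sets of Masp1 ran from -0.62 to 0.04 after fraction 1 and from -0.68 to 0.54 after fraction 2. Its second read 994.4 and 1056.8 in control, 652.3 and 673.9 after fraction 1, and 490.5 and 816.9 after fraction 2. All 4 fraction arrays lay below both controls there. Both fraction 2 arrays lay below both controls at the third probe set and above them at the fourth, the dimmest tested.

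C2 encodes the protease of the classical and lectin C3 convertase and was the only member above control on all 4 fraction arrays. It read 1308.5 and 1059.6 in control, 1756.1 and 1527.7 after fraction 1, and 1695.2 and 1678.3 after fraction 2. The changes were 0.47 ± 0.18 (adjusted p = 0.339) and 0.51 ± 0.18 (adjusted p = 0.647), and between the fractions -0.04 ± 0.18 (adjusted p = 0.960), with an interval from -0.46 to 0.38. Cfb, its neighbour on chromosome 17 and its counterpart in the alternative pathway, lay on the other side of control. Its signals were 7053.1 and 8578.2 in control, 5699.5 and 4981.0 after fraction 1, and 6279.1 and 6832.7 after fraction 2, with changes of -0.54 ± 0.15 (adjusted p = 0.173) and -0.25 ± 0.15 (adjusted p = 0.787), and -0.30 ± 0.15 between the fractions (adjusted p = 0.647). Cfi encodes factor I, which cleaves C3b and C4b. It read 11213.5 and 14441.7 in control, 10042.2 and 8838.6 after fraction 1, and 10292.8 and 10490.4 after fraction 2. Its changes were -0.43 ± 0.15 (adjusted p = 0.269) and -0.29 ± 0.15 (adjusted p = 0.748), and -0.14 ± 0.15 between the fractions (adjusted p = 0.804). For Cfb and Cfi the 3 groups did not overlap, with fraction 1 lowest. Without control replicate 2, Cfb stood at -0.11 after fraction 2, and Cfi at -0.25 and -0.11. With median centring they stood at -0.13 and -0.18 after fraction 2.

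**Figure D2:**
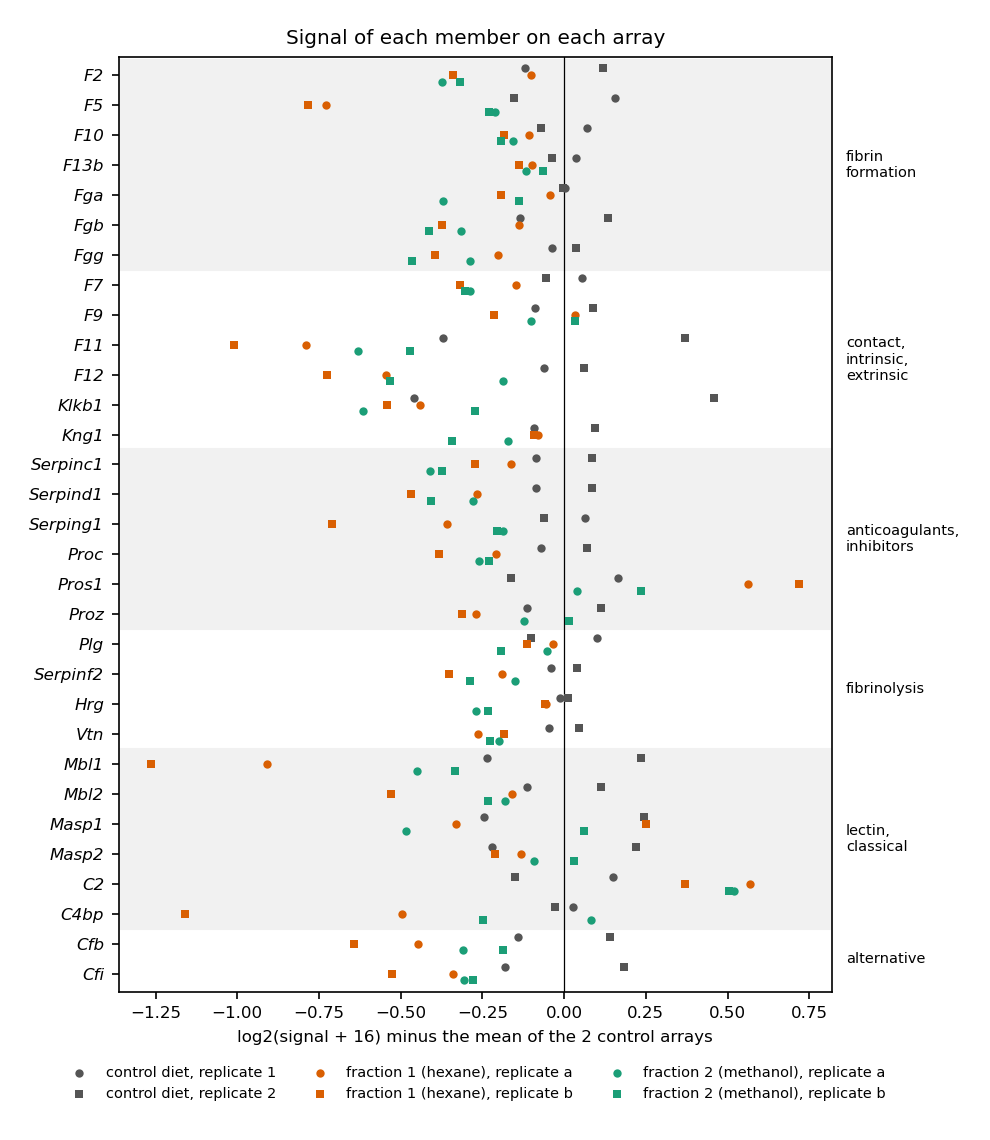
Signal of the 31 members on each of the 6 arrays, as log2(signal + 16) minus the mean of the 2 control arrays of that gene (x axis), with genes grouped by role and replicates as circles (1 or a) and squares (2 or b). Mbl1, F11, C4bp and F5 have their fraction 1 arrays farthest to the left, Pros1 and C2 lie to the right, and the control arrays of F11 and Klkb1 stand far apart.

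The windows of Mbl1, F11 and C4bp are shown because these 3 had the lowest fold changes after fraction 1. They are chr14:41151206-41151505 on the plus strand, chr8:45261982-45262281 on the minus strand and chr1:130661569-130661868 on the minus strand, with capitals as above.
Mbl1: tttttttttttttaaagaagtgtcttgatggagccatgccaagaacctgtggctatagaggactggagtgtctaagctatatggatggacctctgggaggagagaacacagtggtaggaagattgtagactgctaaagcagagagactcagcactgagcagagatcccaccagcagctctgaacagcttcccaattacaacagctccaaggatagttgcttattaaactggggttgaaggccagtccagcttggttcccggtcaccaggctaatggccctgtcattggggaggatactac
F11: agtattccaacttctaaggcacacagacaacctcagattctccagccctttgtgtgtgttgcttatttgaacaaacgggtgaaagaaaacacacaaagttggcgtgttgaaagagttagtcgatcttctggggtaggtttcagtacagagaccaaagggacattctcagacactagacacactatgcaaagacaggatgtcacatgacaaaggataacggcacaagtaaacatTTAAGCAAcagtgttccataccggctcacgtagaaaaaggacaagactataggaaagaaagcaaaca
C4bp: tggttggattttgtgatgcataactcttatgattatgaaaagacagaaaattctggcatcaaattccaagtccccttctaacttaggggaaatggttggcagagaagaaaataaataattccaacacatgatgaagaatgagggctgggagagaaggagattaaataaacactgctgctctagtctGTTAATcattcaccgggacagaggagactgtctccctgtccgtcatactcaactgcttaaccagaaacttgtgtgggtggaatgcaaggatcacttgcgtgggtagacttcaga
The window of F11 held 1 match to the C/EBP letters, that of C4bp 1 match to GTTAAT, and that of Mbl1 none of the 5 motifs. None of the 3 shared a motif with another.

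Between the fractions the members were split, with 19 of 31 lower after fraction 1 than after fraction 2 and a median of -0.04, against 0.02 for all probe sets, of which 47.7% were lower. At an unadjusted p under 0.05, 4 were lower and 1 higher, against 4.18% and 3.86% of all probe sets, or 16.1% against 8.04% in either direction. The 5 became 3 with no variance trend (9.68%, against 7.37% of all) and 9 with chip lot as a block (29.0%, against 8.91% of all). The count was lower without any single fraction array and within scan batch 1, and higher without either single control array. The share of all probe sets moved the same way, except within scan batch 1, where it was higher. Each of these runs leaves a group with 1 array. With all arrays, the 4 lower members were F5, Mbl1, C4bp and Serping1, and the 1 higher was Pros1. Both fraction 1 arrays lay below both fraction 2 arrays for 10 members, against 21.4% of all probe sets, and above them for 4, against 25.4%. All 8 complement members but Masp1 lay below 0 (median -0.14), while 12 of the 23 coagulation and fibrinolysis members did (median -0.01), and the difference between these lists was not tested. With quantile normalization 6 of 8 and 18 of 23 did, and with median centring 7 of 8 and 16 of 23. Without fraction 1 replicate b the median of the members was 0.04, and without replicate a it was -0.13.

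**Figure D3:**
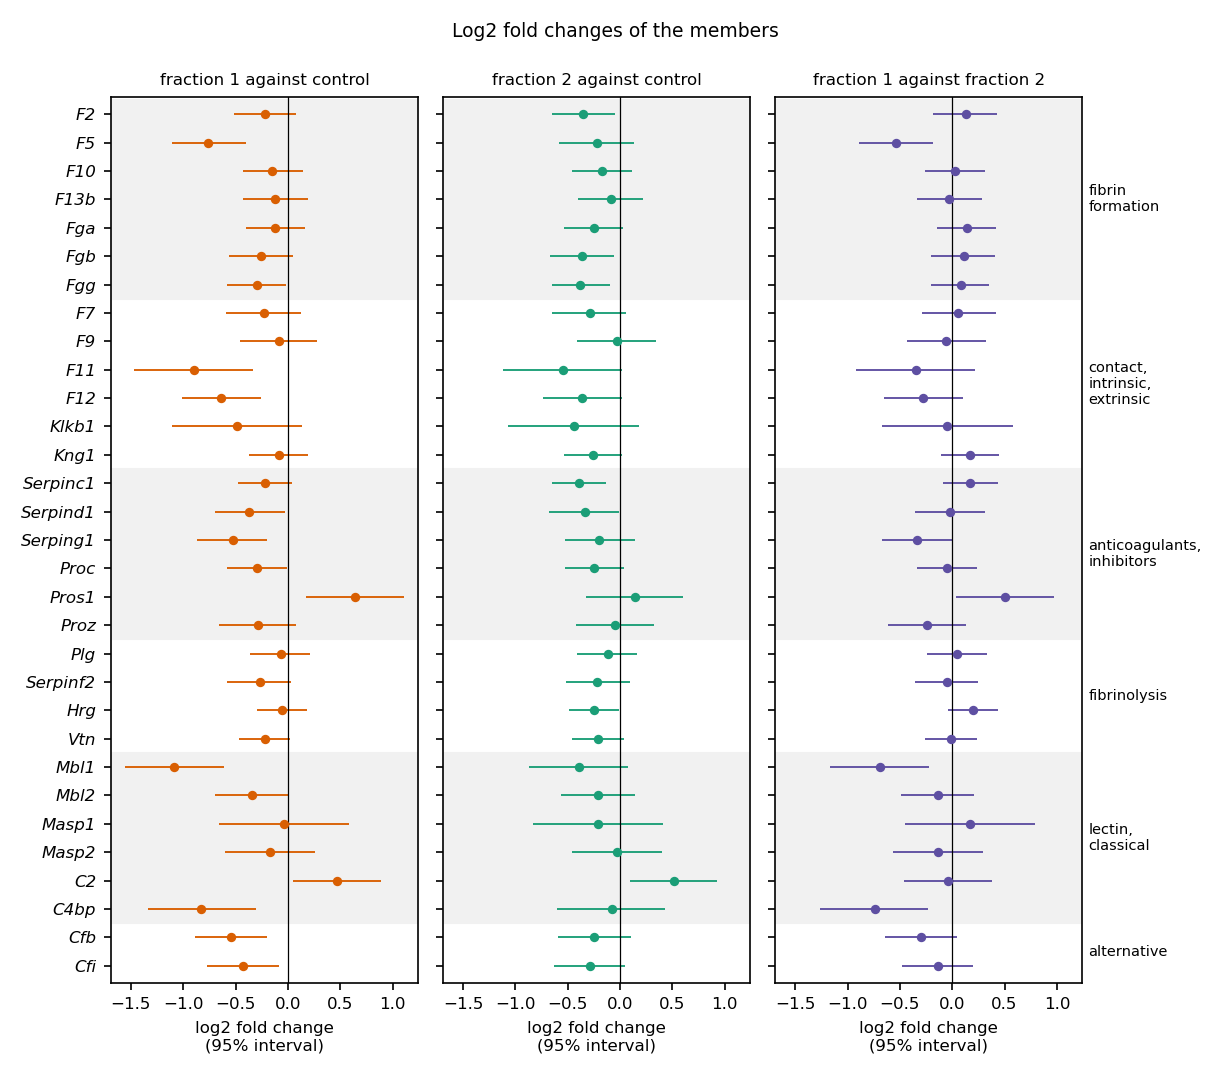
Log2 fold changes of the 31 members (points) with 95% intervals from the limma fit (lines) for fraction 1 against control, fraction 2 against control and fraction 1 against fraction 2, with genes in rows by role. Most intervals against control include 0, with most points to its left. Mbl1 after fraction 1 is lowest at -1.09, and the panel between the fractions is centred near 0.

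Of 49 further genes of coagulation and complement listed beside the members, 32 were tested. After fraction 1, 3 of them fell and 29 did not pass, where 0.712% of all tested probe sets passed. The 3 were C6, C8b and C9, which encode parts of the membrane attack complex, at -1.79, -1.51 and -1.73 (adjusted p = 0.0284, 0.0188 and 0.0319). Other tested genes of that complex did not pass: C8a stood at -1.0 (adjusted p = 0.12), C8g at -0.34 and Hc at -0.12. After fraction 2, C6, C8b and C9 stood at -0.46, -0.92 and -0.38. The median of the 32 was -0.20 after fraction 1 and -0.21 after fraction 2, where none passed (0.108% of all did). At an unadjusted p under 0.05 with limma stood 8 of the 32 after fraction 1 (25%, against 12.4% of all). After fraction 2 it was 2 of the 32 (6.25%, against 6.95% of all). Of the carboxylation and secretion genes on which clotting factors depend, Ggcx, Vkorc1, Lman1 and Mcfd2 stood between -0.21 and 0.19 after fraction 1 and between -0.06 and 0.01 after fraction 2. None of 12 tested regulators passed after either fraction, and 9 lay below 0 and 3 above it each time. Foxa1, Foxa2 and Nr0b2 stood at -0.73, -0.61 and -0.65 after fraction 1 and at -0.21, -0.54 and -0.27 after fraction 2. Hnf4a, a nuclear receptor that controls many hepatocyte genes, stood at -0.11 and -0.19, and Cebpb, a factor of the acute phase response, at 1.26 (adjusted p = 0.0659) and 0.42 (adjusted p = 0.772). Il6st, the signalling chain of the interleukin-6 receptor, stood at -0.88 (adjusted p = 0.0793) and -0.58 (adjusted p = 0.543).

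**Figure D4:**
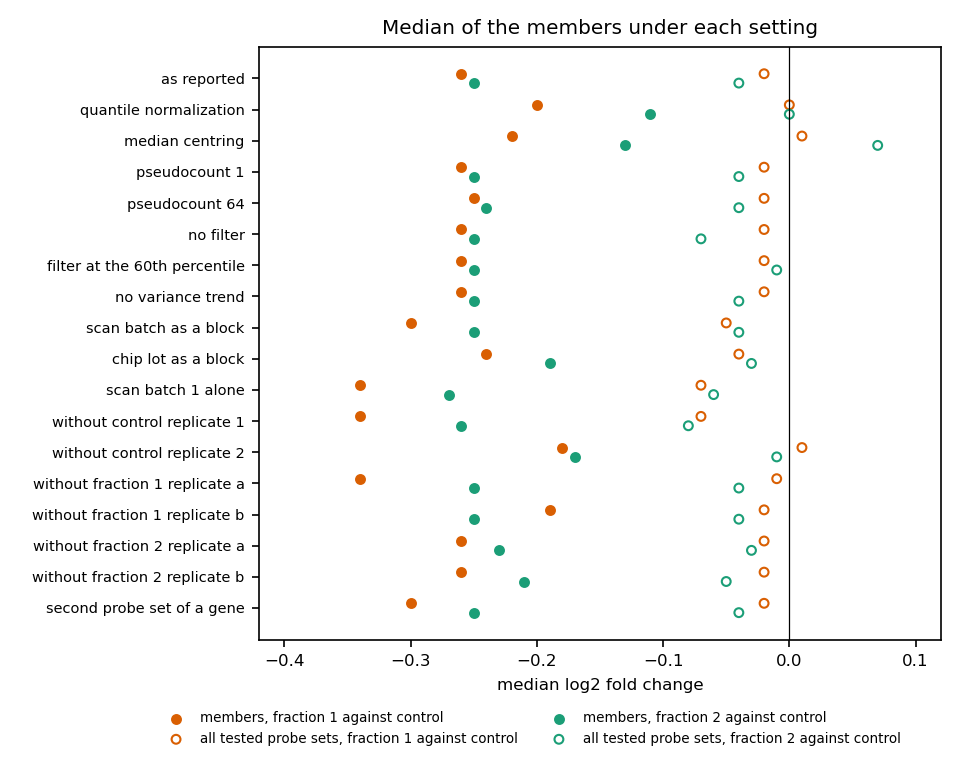
Median log2 fold change (x axis) of the 31 members (filled) and of all tested probe sets (open) for fraction 1 (orange) and fraction 2 (green) against control, as reported and under each alternative setting (rows). The members' medians stay below 0 and below those of all probe sets in every row drawn, from -0.34 to -0.18 after fraction 1 and from -0.27 to -0.11 after fraction 2.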

How the data were processed

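Liver RNA of 6 arrays was analysed, in 3 groups of 2 taken from the labels. The deposited table holds 1 intensity value per probe set on a linear scale, for 22690 probe sets. The authors' summary software and scaling are not stated in the labels or file headers. The mean without the lowest and highest 2% of values was equal across arrays within 0.082%, and median signals ran from 139.2 to 167.2. Array type (MOE430A), scan batch and chip lot were read from the scanner's experiment files, per the file headers. Saturation flags and detection calls were not used here.

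A probe set was tested when at least 2 of 6 arrays reached their own 40th percentile, which left 14755 of 22690. Log2(signal + 16) was fitted with limma 3.58.1 in R 4.3.3 (lmFit, eBayes with a variance trend, 3 groups sharing 1 spread), and every adjusted p is limma's two-sided p after Benjamini-Hochberg over all tested probe sets, called under 0.05. Fold changes on this scale understate the change of dim genes. Intervals are the fit's 95% intervals. The code was tested on simulated data. Symbols came from the platform annotation: 20393 probe sets had 1 symbol, 691 several and 1606 none, and 20364 were matched to RefSeq by Entrez ID with 0 symbols changed.

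The members, lists and tests were chosen with earlier results of these data known. Genes given in full were the 5 members with the smallest p in each comparison and the 2 with the smallest p after fraction 1 in each role. The fibrinogen chain Fga, Klkb1, Mbl2, F10, Plg and the Masp genes were described beside them after their values were seen. The regulators named were not picked by that rule either. Alternatives covered scaling, pseudocounts of 1 and 64, the filter, the variance trend, second probe sets, scan batch and chip lot as blocks, and leaving out each array. Further lists gave these medians after fraction 1 and fraction 2: other pathway genes -0.20 and -0.21, regulators -0.17 and -0.16.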

Additional observations from a re-analysis of the deposited data

How the results depend on the processing

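In these settings no member passed in fraction 2 against control or between the fractions. After fraction 1, 1 member passed with scan batch as a block and 1 with chip lot as a block (Mbl1 in both), and leaving out arrays gave 0 to 2, the 2 being Mbl1 and F11 without control replicate 1. The cause was not tested. The members' median after fraction 1 was -0.34 within scan batch 1 and ran from -0.34 to -0.18 over the left-out arrays. After fraction 2 it was -0.11 with quantile normalization and -0.13 with median centring, and between the fractions -0.13 with centring and from -0.13 to 0.04 over the left-out arrays.

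Of all probe sets, 105 passed after fraction 1, against 48 with median centring, 27 with no filter, 12 with no variance trend, 66 within scan batch 1 and 14 to 149 over the left-out arrays (lowest without fraction 1 replicate b, highest without control replicate 1). After fraction 2, 16 passed, against 10 with no filter, 2 with no trend, 10 with chip lot as a block, 4 within batch 1 and 3 to 28 over the left-out arrays. Between the fractions 2 passed, against 0 with quantile normalization, centring, a pseudocount of 1, no filter, no trend, scan batch as a block or batch 1 alone, 16 with chip lot as a block and 0 to 11 over the left-out arrays.

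Differences between the arrays lettered a and b were barely correlated between the fractions (r = 0.0301 over all tested probe sets). This cannot show whether the letters pair arrays, because the fraction 2 arrays came from different scan batches and the fraction 1 arrays from the same batch. The differences between scan batches in control and in fraction 2 had r = 0.296. With replicate letter as a block 75 probe sets passed between the fractions, against 2 on the same 4 arrays without the block, and 0 members passed with it.

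Signs turned for these log2 changes, none of them past the threshold. After fraction 2, Pros1 was 0.00 with chip lot as a block and -0.03 to 0.30 over the left-out arrays, and C4bp was 0.03 with centring, 0.18 with chip lot as a block and -0.25 to 0.08 over the left-out arrays. Between the fractions, F2 was -0.01 (quantile) and 0.00 (chip lot), Fgb -0.07 (quantile) and 0.00 (chip lot), Fgg -0.06 (quantile) and -0.01 (centring), Serpinf2 0.02 and Vtn 0.00 within batch 1, and C2 0.02 (quantile), 0.04 (scan batch) and 0.03 (chip lot). Over the left-out arrays Fgb ran from -0.01 to 0.23, Fgg from -0.02 to 0.17, Serpinf2 from -0.13 to 0.03, Vtn from -0.05 to 0.03 and C2 from -0.14 to 0.06.

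Among the other members, without control replicate 2 Kng1, Masp1 and Masp2 turned after fraction 1, and F9, Klkb1, Proz, Masp1 and Masp2 after fraction 2. Masp1 turned after fraction 1 without its replicate a and F9 without its replicate b. F9, Proz, Masp1 and Masp2 turned after fraction 2 without its replicate a, and F9 and Masp2 with chip lot as a block. With second probe sets, F10 turned after fraction 1 and Proz after fraction 2.

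With 2 arrays a group the median standard error of a log2 change was 0.25, and a run without 1 array assumes that the lone array left varies like the other groups.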
